A study of Drosophila melanogaster with 4 samples.

Results

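The genes described here encode the structural parts of the fruit fly sperm, its tail, its compacted chromatin and its abundant aminopeptidases, together with the cup and comet genes that are transcribed late in spermatids. They were taken from a list of 35 gene symbols, and a gene was used where the platform table pairs a probe set, the group of short probes that reports 1 transcript, with that gene alone. This held for 30 of the 35 genes, through 32 probe sets, out of 11981 genes in all. The comet genes hubl and cola were left out because each of their probe sets is paired with a second gene, and S-Lap1, S-Lap3 and S-Lap4 were not analysed here. RNA came from 4 pools of Drosophila melanogaster of the Canton-S wild-type strain, each labelled as 30 males and 30 females and hybridised to 1 Affymetrix Drosophila Genome 2.0 array. The groups were young flies (1 to 3 days) without curcumin, young flies fed 100 µM curcumin, a polyphenol of turmeric, old flies (40 days) without it, and old flies fed 100 µM curcumin. Food without curcumin carried the ethanol vehicle alone. Because each group has a single array, differences between 2 groups are described without a p-value or an error between replicates, and p-values come only from a model over all 4 arrays.

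In the fly testis, germ cells pass from spermatocytes through meiosis into spermatids, which elongate a long flagellum and replace their histones with small basic proteins. Most of the transcripts used after meiosis are made beforehand in spermatocytes and stored for later translation. The cup and comet genes are an exception, since they are transcribed in elongating spermatids and their transcripts collect at the distal ends of the tails. In RNA from whole flies, fewer germ cells of a stage and less RNA per cell cannot be told apart.

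Markers of the sexes were set beside the labels before any comparison. Male genes were strong on every array, with all 22 measured genes of the accessory gland and ejaculatory duct above the floor. Signals are MAS5 values, the array maker's summary of the brightness of a probe set, and the floor, 19.3 units, is the 40th percentile of all signals, below which a signal was not used as a level. Of 16 genes of the ovarian follicle and the yolk, 12 were below the floor on all 4 arrays, and the 3 yolk protein genes, among the strongest transcripts of adult females, read 9.54 to 27.4 for Yp1, 5.64 to 20.9 for Yp2 and 43.6 to 57.8 for Yp3. Among 6 early germline and oocyte genes, bam, vas, osk and bcd were below the floor on all arrays, while grk read 245 to 288 and bgcn 64.4 to 108. The labelled females were thus not matched by the transcripts that define them, and the pools are called by their labels throughout. Yp1, Yp2, bam, vas, osk and bcd were named after their values were seen.

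Of the 30 sperm genes, 27 reached the floor on each of the 4 arrays. The cup gene d-cup was above it on the young array without curcumin (26.6) and the old array with curcumin (19.9). In every pair of arrays compared below, the direction of d-cup was therefore fixed by the floor, and the counts include it. The cup gene p-cup and the comet gene sunz were below it on every array and enter no comparison. The remaining 28 genes were therefore compared in each pair of arrays, and they are the same 28 each time.

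**Figure D1:**
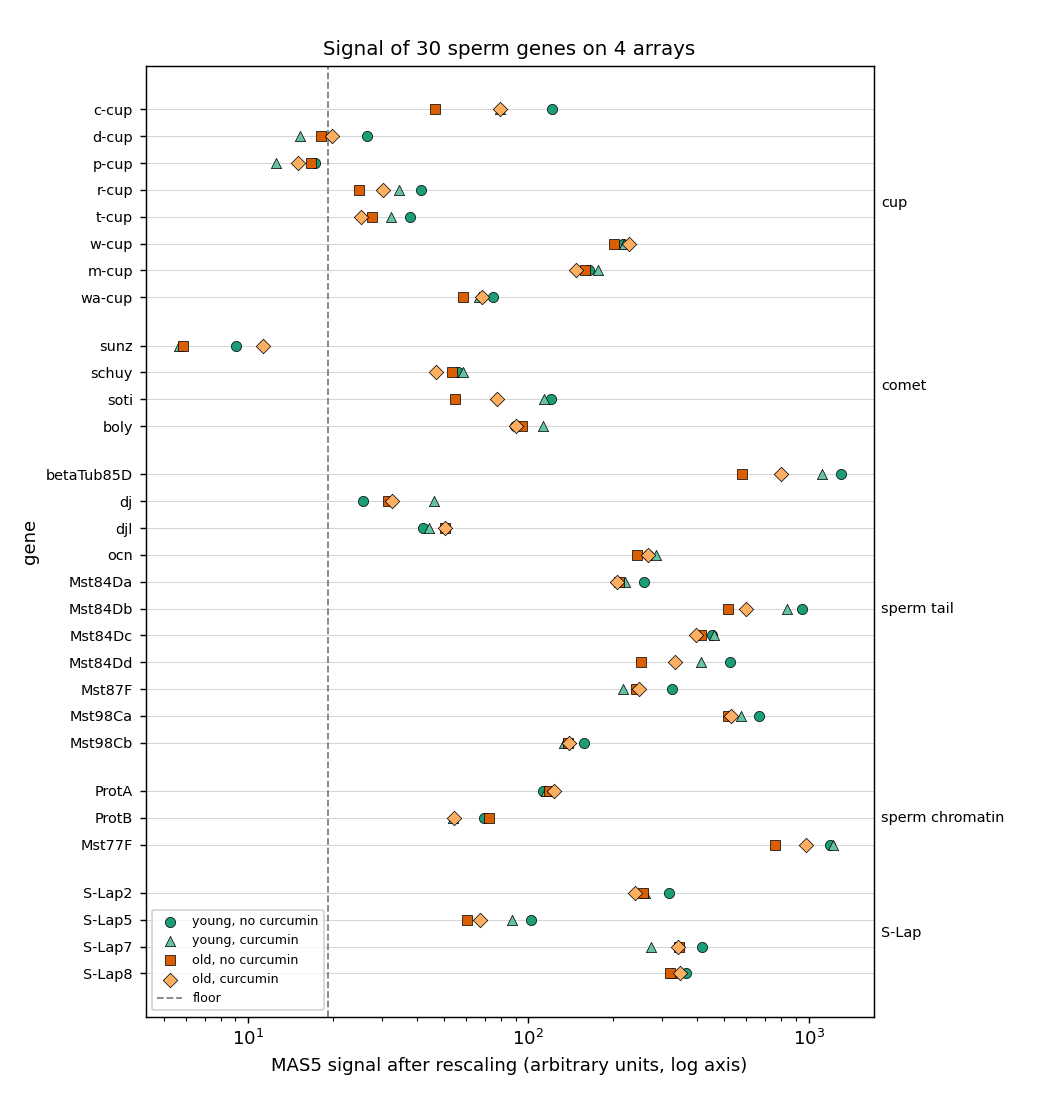
MAS5 signal of each of the 30 genes (log axis) on the 4 arrays, grouped by role, with 1 point per array and the floor of 19.3 as a dashed line. The young array without curcumin lies to the right of the others for many genes, such as c-cup at 121, whereas ProtA stays between 113 and 123.

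In flies without curcumin, sperm genes read lower in old than in young pools, mostly by less than 2-fold. The median log2 difference, old minus young, was -0.30 over 28 genes, against -0.02 over all 9712 genes compared, and 23 of the 28 were lower, where 51.1% of all genes were. A difference of 2-fold or more was reached by 4 of the 28 downward and by 0 upward, against 9.8% and 4.21% of all genes, so these counts lay near the background. The 4 genes were c-cup, soti, betaTub85D and Mst84Dd. Centring each array on its median, which raised the median of all genes by 0.20, left c-cup alone past 2-fold, and a floor at the 60th percentile of signals left betaTub85D and Mst84Dd. The count of lower genes also depended on this centring. It turned w-cup, m-cup, schuy, ocn, Mst84Dc, Mst98Cb and S-Lap8 positive (0.02 to 0.16), where the median of all genes was 0.18. As a gauge of error within these arrays, 2 probe sets of the same gene gave age differences that lay a median of 0.35 apart on the log2 scale over 422 genes, and 1 in 10 such pairs lay at least 1.00 apart. Both probe sets read the same pools and arrays, so this gap leaves out variation between pools.

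Among the sperm tail genes, betaTub85D encodes the testis beta-tubulin of the meiotic spindle and the sperm axoneme. Its signal was 1299.6 in young flies without curcumin, 1121 in young flies with it, 577 in old flies without it and 795 in old flies with it. Both old arrays read below both young arrays, and without curcumin the old pool was 2.25-fold lower (log2 difference -1.17).

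The Mst84D genes, 4 direct neighbours in the current gene table, encode tail proteins rich in cysteine, glycine and proline. Mst84Dd read 526 and 412 in young flies without and with curcumin and 253 and 333 in old flies without and with it, 2.08-fold lower with age without curcumin. Mst84Db read 944 and 839 in young and 514 and 595 in old flies, in the same order of diets, 1.84-fold lower without curcumin. For both genes, as for the other 2 Mst84D genes, the old array lay below the young one on either food. Lower values with age on both foods were seen for 36.9% of all genes. Mst84Da read 258 and 222 in young and 210.3 and 207 in old flies, and Mst84Dc read 453 and 459 in young and 412 and 395 in old flies. These 2 neighbours differed with age by 1.23-fold and 1.10-fold without curcumin, less than the median gap between 2 probe sets of one gene. The 4 genes are related in sequence, and how far a probe set of one also reads another was not tested.

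The related tail genes elsewhere in the genome had smaller age differences than Mst84Dd and Mst84Db. Mst87F read 325, 217, 241 and 248 in young flies without curcumin, young flies with it, old flies without it and old flies with it, so that the young array without curcumin stood above the other 3. In the same order of arrays, Mst98Ca read 667, 572, 514 and 528, and its direct neighbour Mst98Cb read 158, 134, 138 and 140.1. The log2 age differences without curcumin were -0.43 for Mst87F, -0.38 for Mst98Ca and -0.19 for Mst98Cb.

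The tail genes dj and djl ran in the other direction from the rest of the tail genes without curcumin, and ocn differed little. The testis gene ocn read 268, 285, 244 and 267 in the order of arrays used above, a range of no more than 1.17-fold. The gene dj, don juan, which encodes a protein along the mitochondrial derivatives of the tail, read 25.7, 45.9, 31.7 and 32.6, and its neighbour djl read 42.0, 44.3, 50.2 and 50.4. These were the 2 tail genes with higher signals in old than in young flies without curcumin, by 0.30 and 0.26 on the log2 scale. The dj signals lay near the floor, and its highest array was the young one with curcumin.

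The sperm chromatin genes did not move together. Mst77F, which encodes a basic protein of the condensed sperm nucleus, read 1191, 1225, 759 and 976 in the order of arrays used above. Both old arrays were below both young ones, and without curcumin the difference was 1.57-fold. The neighbouring protamine-like genes ProtA and ProtB, whose products replace histones in the spermatid nucleus, differed by 0.06 each on the log2 scale in the same comparison. ProtA read 113, 116, 118 and 123, and ProtB read 69.3, 53.8, 72.4 and 54.4. ProtB was thus lower on both curcumin arrays at either age, and ProtA differed by no more than 1.09-fold between any 2 arrays. A further probe set is paired with both genes and was not used.

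The S-Lap genes encode aminopeptidase-family proteins that are abundant in mature sperm. All 4 measured ones were highest on the young array without curcumin. S-Lap5 read 102 and 87.6 in young flies without and with curcumin and 60.4 and 67.0 in old flies without and with it, 1.69-fold lower with age without curcumin. S-Lap7 read 418, 274, 344 and 342, S-Lap2 read 317, 261, 257 and 239, and S-Lap8 read 365, 326, 319.7 and 348, in the order of arrays used above. Only for S-Lap5 and S-Lap2, among these 4, did both old arrays lie below both young arrays, and for S-Lap2 the young array with curcumin (261) and the old array without it (257) were nearly level.

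Among the cup genes, c-cup had the largest age difference of all 28 sperm genes without curcumin. It read 121 in young flies without curcumin, 79.1 in young flies with it, 46.4 in old flies without it and 78.9 in old flies with it, so the age difference was 2.61-fold lower without curcumin and near 0 on curcumin food (log2 difference -0.003). The other measured cup genes were also lower in old flies without curcumin, 7 of 7 in all, where 51.1% of all genes were. For w-cup (log2 -0.10) and m-cup (-0.05) the difference was below the median gap of 0.35 between 2 probe sets of one gene. Centring each array on its median turned both positive. r-cup read 41.2, 34.6, 24.9 and 30.4 in the order of arrays used above, and t-cup read 37.7, 32.2, 27.5 and 25.3. The signals of w-cup (203 to 228), m-cup (147 to 178) and wa-cup (58.2 to 75.0) spanned no more than 1.29-fold each. For d-cup the old array was below the floor, which makes the difference without curcumin at least 1.38-fold lower. As d-cup entered through the young array alone, it could only be counted as lower in the 7 of 7. The other 2 probe sets of r-cup were above the floor on 1 and 0 arrays and gave no further comparison.

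Among the comet genes, soti encodes an inhibitor of the ubiquitin ligase that drives caspase activity when spermatids separate into individual sperm. It read 121 and 114 in young flies without and with curcumin and 54.7 and 77.2 in old flies without and with it, both old arrays below both young arrays and 2.21-fold lower without curcumin. The genes schuy and boly differed less with age without curcumin. In the order of arrays used above, schuy read 56.3, 58.3, 53.6 and 46.9 and boly 89.3, 113, 94.7 and 90.5. For schuy both old arrays also lay below both young arrays, but for boly they did not. On the log2 scale the age differences of schuy and boly were -0.07 and 0.09 without curcumin and -0.315 and -0.32 on curcumin food.

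On curcumin food the age differences of the sperm genes were smaller. The median was -0.12 over the same 28 genes, against -0.005 over all 9748 genes compared, and 18 of the 28 were lower, where 50.4% of all genes were. None of the 28 (0 downward, 0 upward) reached 2-fold, as 2.63% of all genes did downward and 3.0% upward. The most negative values were soti at -0.56, dj and betaTub85D at -0.50 each and Mst84Db at -0.49 (log2, old minus young), and the most positive was S-Lap7 at 0.32. The sign of the median depended on the scaling: with no rescaling it was 0.003, where the median of all genes was 0.12, and relative to all genes it was -0.12 in the standard processing and -0.11 without rescaling.

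**Figure D2:**
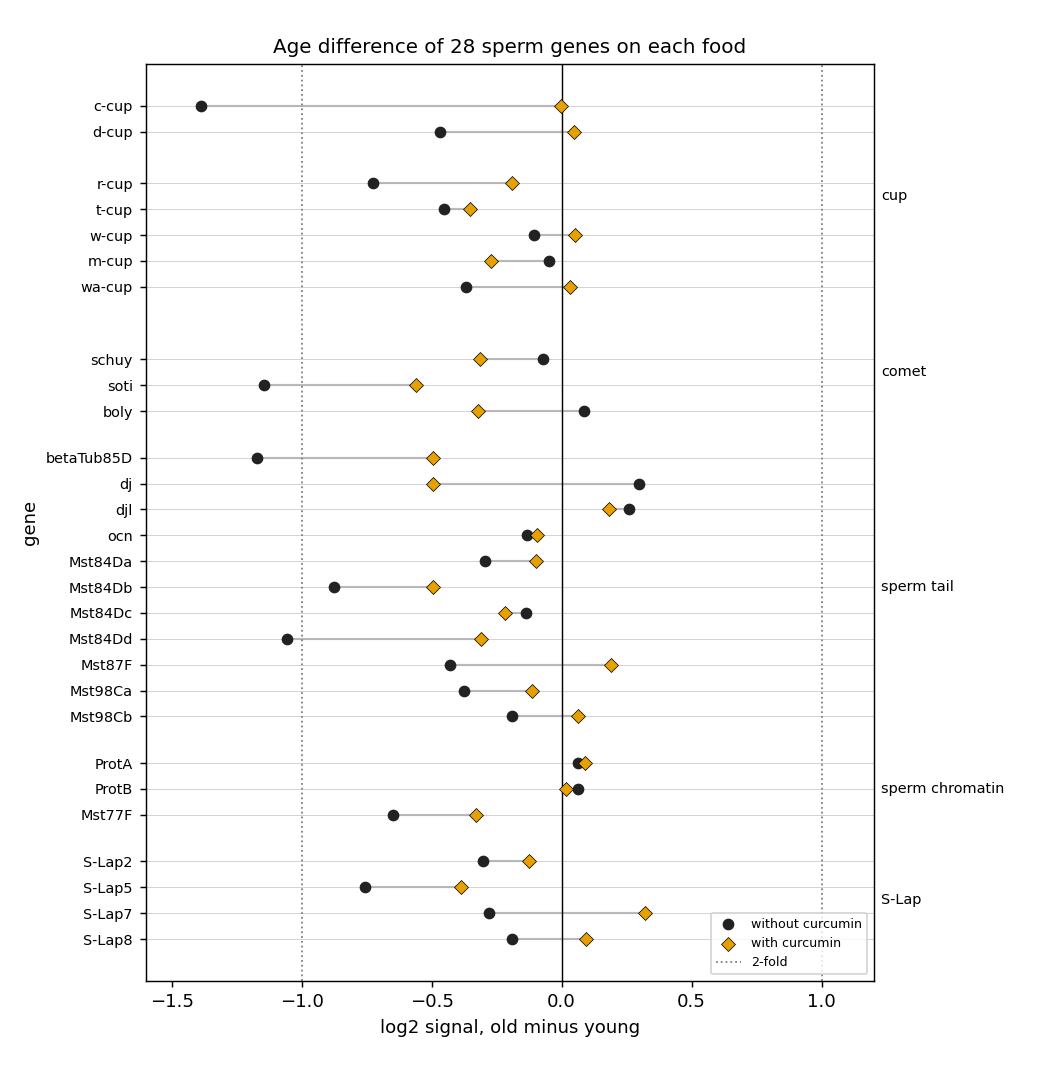
Log2 difference, old minus young, of the 28 compared genes without curcumin (black circles) and with it (orange diamonds), 1 value per gene and food, with dotted lines at 2-fold. The circles of c-cup, soti, betaTub85D and Mst84Dd lie beyond the 2-fold line on the left and no diamond does.

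The age differences on the 2 foods come from separate arrays. Both were negative for 16 of the 28 genes, where 36.9% of all genes were lower on both foods. A further 7 genes were lower with age without curcumin and higher on curcumin food, against 14.2% of all genes. The age difference was higher, meaning less negative or more positive, on curcumin food than without curcumin for 21 of the 28 genes, against 51.8% of all genes, with a median shift of 0.26 on the log2 scale against 0.02. This shift ranged from 1.38 for c-cup to -0.80 for dj, and was 0.75 for Mst84Dd and 0.68 for betaTub85D. It has no test here, since each group has 1 array. Across the 28 genes, which are not independent replicates and share their arrays, Pearson's r between the 2 age differences was 0.36 and Spearman's rho 0.32, and across all 9476 genes compared on both foods they were 0.63 and 0.61.

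A limma model with terms for age and diet, fitted on the 4 arrays across 9562 genes, called 0 of 28 sperm genes for age at an adjusted p (Benjamini-Hochberg) below 0.05, and it called 0 genes in all (0% of those tested). The unadjusted p was below 0.05 for 4 sperm genes, all lower in old flies, against 12.0% of all genes with such a p and a lower value. These 4 were soti (log2 -0.85, SE 0.23), betaTub85D (-0.83, SE 0.24), Mst84Db (-0.69, SE 0.20) and S-Lap5 (-0.57, SE 0.20), with limma adjusted p-values of 0.168, 0.178, 0.177 and 0.203. Each of the 4 was lower in old than in young flies on both foods. A small p in this model favours such genes, because the SE grows with the change of the age difference between foods. The count of 4 in 28 lay near the share of all genes. The estimate for c-cup was -0.69 with an SE of 0.38. Of the 28 estimates 24 were negative, where 4883 of 9562 genes were, with a median of -0.18 against -0.01 over all genes tested. Centring each array on its median left 17 of the 28 negative, where 3817 of 9566 genes were.

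The cup and comet genes, transcribed after meiosis, were set beside the tail and chromatin genes, whose transcripts are mostly made in spermatocytes. Without curcumin the median log2 age difference was -0.41 over 10 cup and comet genes and -0.24 over 14 tail and chromatin genes, with 9 of 10 and 10 of 14 lower and 2 at least 2-fold lower in each, against 51.1% and 9.8% of all genes. With curcumin the medians were -0.23 and -0.11, with 7 of 10 and 9 of 14 lower, against 50.4% of all genes. The difference between the medians, -0.17 without curcumin and -0.12 with it, turned sign under other processing. Without curcumin it was 0.05 with quantile normalization and 0.21 with a floor at the 60th percentile of signals, and with curcumin it was 0.01 with no floor. Each set spanned the range from near no difference to beyond 2-fold without curcumin, from -1.39 to 0.09 for cup and comet genes and from -1.17 to 0.30 for tail and chromatin genes. The 4 S-Lap genes had medians of -0.29 and -0.02.

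Other lists of genes of the male tract were also lower in old flies without curcumin, where 51.1% of all genes were lower, 9.8% were lower by 2-fold or more and the median was -0.02. Of 21 other genes of late testis stages compared, 20 were lower and 6 at least 2-fold lower, with a median of -0.64. They ranged from hmw (-1.94) to nes (0.30), and janB, of the family of ocn, was at -0.42. Of 10 genes of the spermatocyte transcription programme and meiosis compared, 10 were lower and 5 at least 2-fold lower, with a median of -0.95. Among them, bol, which encodes a meiotic translation regulator, was at -0.88, Rbp4 at -1.21 and mia at -0.06, and sa, under the floor in the old pool, was at least 1.78 lower on the log2 scale. In these lists a gene under the floor on 1 array entered at its bound. Besides sa, this held in the old pool for tomb, vis, can and nht of the spermatocyte and meiosis list. Of the other late testis genes it held for Mst36Fb, snky, Pkd2 and Dic61B. These genes could only come out lower, so the counts of lower genes in both lists are partly fixed by the floor. The accessory gland and duct genes, which are not expressed in the germline, had a median of -0.96 over 22 genes, with 20 lower and 10 at least 2-fold lower, from Acp53C14c (-2.72) to Acp26Ab (0.50). Acp53C14a was at -0.52 and EbpIII at -0.12. On curcumin food the medians of the 3 lists were -0.22 over 20 genes, -0.28 over 13 genes and -0.10 over 22 genes.

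**Figure D3:**
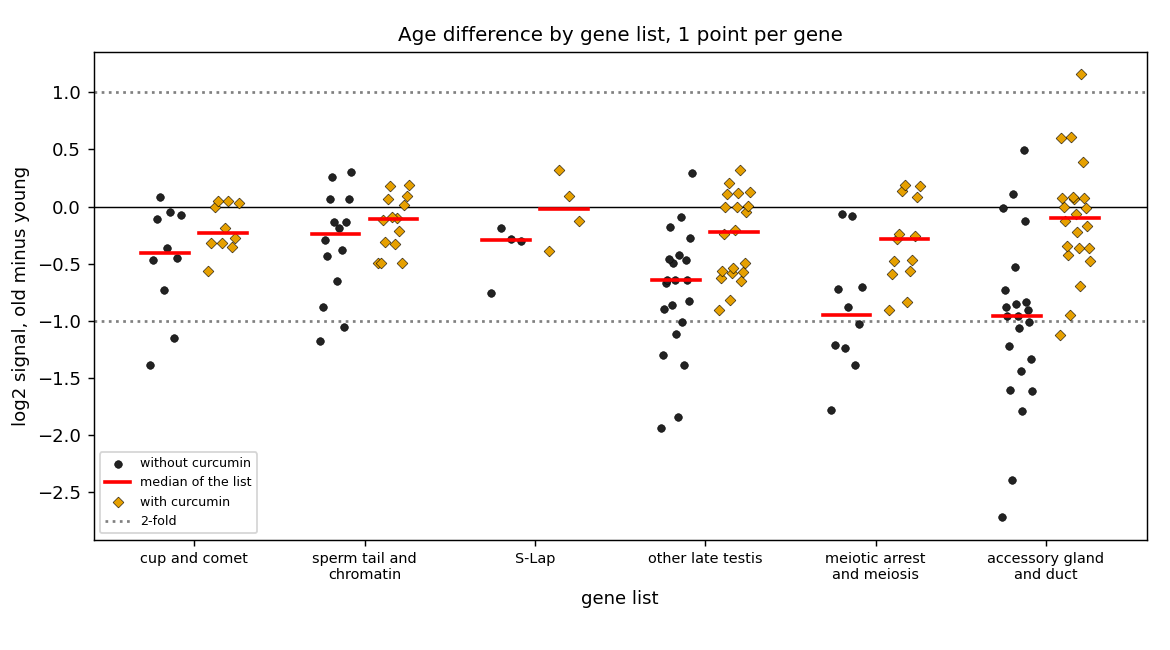
Log2 difference, old minus young, by gene list, 1 point per compared gene, without curcumin (black circles) and with it (orange diamonds), with red bars at the list medians and dotted lines at 2-fold. Without curcumin the medians are -0.41, -0.24 and -0.29 for the 3 sets of sperm genes on the left and -0.64, -0.95 and -0.96 for the other male lists.

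The male tract lists moved with the same array. The summed signal of the accessory gland and duct genes was 92631 in young flies without curcumin, 89703 in young flies with it, 48764 in old flies without it and 80103 in old flies with it. The summed signals of the spermatocyte and meiosis list were 711 and 741 on the young and 373 and 592 on the old arrays, and those of the other late testis genes 2550.4 and 2567 on the young and 1799 and 2276 on the old arrays. The gene msl-2, whose protein assembles the dosage compensation complex of males, read 57.3, 55.3, 138 and 82.6 in the order of arrays used above, in the opposite direction. The part of the amount of male tissue in each pool in the differences of the sperm genes was not tested.

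The 4 arrays were also ranked within each gene. Of the 27 sperm genes measured on all arrays, 16 had their highest signal on the young array without curcumin, where 22.2% of 8676 genes did, and 13 had their lowest on the old array without curcumin, where 34.4% did. Both held for 10 of the 27, against 13.5% of all genes. By set, the young array without curcumin was highest for 5 of 9 cup and comet genes, 7 of 14 tail and chromatin genes and 4 of 4 S-Lap genes. From the lowest to the highest array the sperm genes spanned a median of 1.32-fold, against 1.51-fold over all genes, and 4 of the 27 spanned at least 2-fold, against 20.9% of all genes.

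In young flies, the median difference of the sperm genes between foods was small and negative. The median log2 difference, curcumin minus no curcumin, was -0.19 over the 28 genes, against -0.04 over 9764 genes. Of the 28, 18 were lower, where 56.2% of all genes were, so this count lay near the background. None of the 28 (0 downward, 0 upward) reached 2-fold, as 0.399% of all genes did downward and 0.389% upward. The lowest values were those of c-cup (-0.62), S-Lap7 (-0.61) and Mst87F (-0.58), and the highest was that of dj (0.83, 1.78-fold), followed by boly (0.34). The medians were -0.13 for the cup and comet genes, -0.19 for the tail and chromatin genes and -0.25 for the S-Lap genes. For single genes in this comparison, 2 probe sets of one gene lay a median of 0.20 apart. Young flies could have eaten the adult food for at most 3 days.

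In old flies, sperm gene signals were close to level between the foods, and several genes that were low in old flies without curcumin read higher on curcumin food. The median was 0.04 over the 28 genes, against -0.02 over 9611 genes, with 19 higher, where 48.3% of all genes were. None of the 28 (0 upward, 0 downward) reached 2-fold, as 5.2% of all genes did upward and 1.25% downward. The highest values were c-cup at 0.77, soti at 0.50, betaTub85D at 0.46, Mst84Dd at 0.40 and Mst77F at 0.36, and the lowest was ProtB at -0.41. These values share the old array without curcumin with the age differences without curcumin, so a gene low on that array has both. Centring each array on its median turned the sign of the median to -0.06, where that of all genes was -0.13. The medians of the spermatocyte and meiosis list (0.61), the other late testis genes (0.43) and the accessory gland and duct genes (0.92) were higher than that of the sperm genes in the same comparison. Among the spermatocyte and late testis genes, those under the floor on the old array without curcumin could only come out higher.

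**Figure D4:**
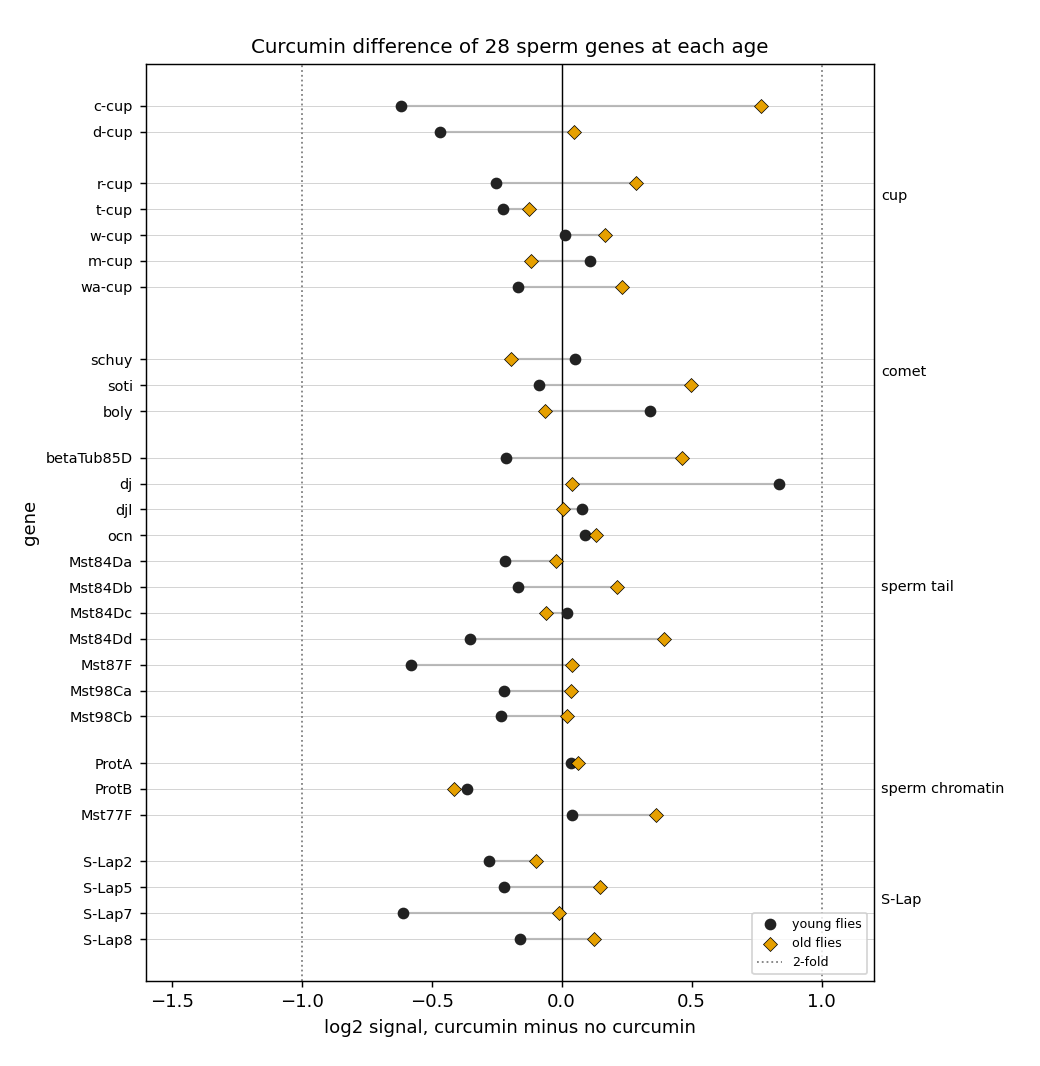
Log2 difference, curcumin minus no curcumin, of the 28 compared genes in young flies (black circles) and old flies (orange diamonds), 1 value per gene and age, with dotted lines at 2-fold. All points lie within 2-fold, with c-cup at -0.62 in young and 0.77 in old flies and dj at 0.83 in young flies.

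The curcumin differences at the 2 ages come from separate arrays. A lower value in young and a higher value in old flies was seen for 13 of the 28 genes, against 25.4% of all genes, and 5 were lower at both ages, against 31.6%. For each gene, the change of the curcumin difference from young to old equals the shift of the age difference between foods given above. These counts are therefore not a separate observation. In the same limma model, 0 of 28 sperm genes had an unadjusted p below 0.05 for curcumin, while 344 of 9562 genes did, and 0 genes (0%) passed after adjustment. As the old flies could have eaten the curcumin food for up to 40 days, age and time on the food cannot be told apart where the curcumin differences are set side by side.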

How the data were processed

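Per the submitters' processing notes, the authors summarised each probe set with MAS5, whose version the sources used here do not give, and the deposited values were taken as log2 signals from their range. No detection calls were used. Signals were back-transformed, rescaled to a common 2% trimmed mean, given a floor of 19.3 units, the 40th percentile of the 4 arrays together, and put on the log2 scale. Per array, 58.6% to 60.8% of probe sets reached this floor, and the number of arrays limits the precision. A fold against the floor is a lower bound. Of 18769 probe sets, 13646 had 1 gene name, 402 had several and the others none in the table. Symbols were updated by gene number to the Release 6 gene table, which matched 11898 of 11981 genes. Where a gene had several probe sets, the one with the highest mean signal (log2) was used.

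Differences between 2 arrays used genes that reached the floor on 1 or both of them. The additive model was fitted in limma 3.58.1 (R 4.3.3) over genes that reached the floor on 2 or more arrays, with 1 residual degree of freedom per gene. That residual is the change of the age difference between the foods, and limma pools it over genes. The p-values therefore do not measure a spread between replicates. On simulated data with known changes the fit called none of the 2-fold changes, only part of the 4-fold changes and most of the 8-fold changes, with some false calls. The simulation changed only a small part of the genes, equally on both foods, so its shares of calls need not hold for these data. Members and lists were chosen with earlier results of these data known. All 30 measured members were named, and of each other list the 2 genes with the highest mean signal and both extremes of the age difference without curcumin. Computation used Python 3.11.15, numpy 2.4.6 and pandas 2.3.3.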

Additional observations from a re-analysis of the deposited data

Results flagged for a closer look

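The median curcumin difference of the sperm genes had opposite signs at the 2 ages, which was not tested because each group has 1 array. It was -0.19 in young and 0.043 in old flies over 28 genes, -0.13 and 0.11 over the cup and comet genes, -0.19 and 0.040 over the tail and chromatin genes, and -0.25 and 0.056 over the S-Lap genes. With each array centred on its median, the medians over 28 genes were -0.16 and -0.063, of the same sign. Among single genes, only c-cup had opposite signs of at least 0.5 on the log2 scale at the 2 ages, at -0.62 in young and 0.77 in old flies, and this difference was not tested either.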

How the results depend on the processing

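Of 870 recomputed single-gene differences, 824 moved by less than the residual SD of 0.20 that limma fitted over all genes, and 46 moved by more. For age without curcumin, centring on the median moved every compared gene but d-cup by more. Sign was counted only for values past 2-fold, those of 4 genes for age without curcumin, and 0 of these changed sign. Smaller values did change sign, as for w-cup and m-cup under median centring. Centring each array on its median moved the median of all genes by 0.20 for age without curcumin, which left the sperm genes at -0.092 there, with 1 gene at least 2-fold lower, and turned the old curcumin median to -0.063. Relative to all genes the sperm genes were at -0.28 in both settings. With no rescaling, the median for age on curcumin food was 0.0029. With a 60th percentile floor, 2 of 22 genes were at least 2-fold lower without curcumin, and with no floor 1 gene, sunz, was at least 2-fold higher with age on curcumin food, from signals below the floor, and 0 genes had a limma unadjusted p below 0.05 for age. The difference between the cup and comet median and the tail and chromatin median turned to 0.047 (quantile normalization) and 0.21 (60th percentile floor) for age without curcumin. For age with curcumin it turned to 0.010 (no floor, and the 25th percentile floor) and 0.037 (pseudocount of 16), and for curcumin in young flies to -0.0052 (no floor, and the 25th percentile floor). The number of sperm genes called by limma stayed at 0 in the 10 alternatives to the age fit and the 10 to the curcumin fit, while centring on the median called 982 genes in all for age and the 60th percentile floor 8. The share of 2-fold calls that were higher with age on curcumin food was 53.3%, or 69.6% with no rescaling, and without curcumin it was 30.1%, or 52.0% with median centring. For curcumin in young flies it was 49.4%, or 33.3% with no rescaling and 65.2% with the 60th percentile floor, and in old flies 80.6%, or 67.0% with median centring. No paired analysis was possible because the labels number no replicates, beyond the limma model itself, which compares the ages within each food and the foods within each age. Leaving out an array removes its group, so the value of the other food or age given above is what remains.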
